A study of Homo sapiens with 12 samples.

Results

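Aminoacyl-tRNA synthetases are the enzymes that charge each tRNA with its amino acid, and they were examined here as a group of genes in HD-MB03 cells, a human medulloblastoma (MB) cell line with an amplified MYC gene. Cells in RPMI medium with 10% FCS received 1 µM entinostat, an inhibitor of class I histone deacetylases, or DMSO as the solvent control, which the labels also call untreated. RNA was taken after 24 h or 48 h, with 3 biological replicates in each of the 4 groups, and each of the 12 samples was measured on 1 array of the type Affymetrix U133 Plus 2.0. The study used this comparison to look for pathways that entinostat alters and that further drugs could target. All groups are the same cell line, so its amplified MYC was shared by controls and treated cells and other MB cells were not compared. The members were the genes whose symbol in the array annotation is a synthetase symbol, that is the letter of the amino acid (EP for EPRS1, the joint glutamyl- and prolyl-tRNA synthetase) followed by ARS and an optional 1 or 2, together with FARSA, FARSB and the scaffold proteins of the multisynthetase complex. The rule used no measured value. It gave 33 genes of 19775 with 70 probe sets of 54613. Of these genes 17 encode cytosolic synthetases, 15 mitochondrial ones and 1, AIMP1, a scaffold protein. Of 40 symbols that the rule names, 7 had no probe set of their own. For 3 of these, MARS1, QARS1 and TARS2, the probe sets carry a microRNA symbol as well and were kept out of the counts, and the other 4 were not analysed here.

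Each synthetase first activates its amino acid with ATP and then transfers it to the end of the matching tRNA, so that the ribosome reads the genetic code through these enzymes. Most amino acids have a cytosolic enzyme and a separate, nuclear-encoded enzyme for the mitochondrial ribosome, while KARS1 and GARS1 serve both compartments from the same gene. The enzymes fall into class I and class II by the fold of their catalytic domain. In the cytosol some of them are held together with scaffold proteins such as AIMP1 in the multisynthetase complex. Several cytosolic synthetase genes are known targets of ATF4, the transcription factor of the amino acid response.

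The deposited values were intensities on a linear scale, with array medians from 80.6 to 81.8 and a lowest value of 36.7. Every value therefore still held a background level, and this made the differences of dim probe sets smaller on the log2 scale. The tests compared groups within a probe set. Levels of different probe sets were set side by side for description, in the marker levels and sums, the choice of probe set and the cut at a mean log2 of 7. Each gene is given by its probe set of the highest mean over the arrays, and over the 33 members this mean was 7.32 to 12.86 on the log2 scale, with a median of 9.48. The line's markers MYC and OTX2 had a mean log2 intensity of 13.53 and 12.65. Over all 8 markers of group 3 MB the range was 6.06 to 13.53. The dimmest therefore lay at the level of the markers of other cell types given below. Of 8 markers of group 3 MB, 3 were lower and 5 did not pass at 24 h, and 1 was higher, 3 were lower and 4 did not pass at 48 h. Falls were called for 15.0% of the whole array's genes at 24 h and 16.6% at 48 h, and rises for 18.2% and 17.3%. With a mean log2 of 7 or more, falls made up 26.5% and 29.9%, and rises 27.1% and 25.4%. The marker counts were not tested against these shares. The summed intensity of the 8 markers was 21700.5 to 24610.0 in DMSO and 18501 to 19846 in entinostat at 24 h, and 24402 to 26022 and 22279.7 to 22824 at 48 h. The brightest markers weigh most in such a sum. GABRA5 and IMPG2 were lower under entinostat at both times (log2 fold change -1.78 and -2.12, -2.02 and -1.52). The other falls among the 8 markers are given as counts only. The 9 measured markers of other cell types lay between 5.71 and 7.04, and their summed intensity was 620.4 to 682 in DMSO and 674 to 689.5 in entinostat at 24 h, against 672 to 688 and 650.5 to 673 at 48 h. Among these 9, EPCAM was higher at both times (log2 fold change 0.53 and 0.52) and MBP lower at 48 h (-0.44). ACTB and GAPDH have probe sets at their 3' and 5' ends, whose log2 difference reflects RNA quality. At 24 h this difference was -0.11 in both groups for ACTB, and -0.13 in entinostat and -0.11 in DMSO for GAPDH. At 48 h it was lower in entinostat for ACTB (-0.14 against -0.07) and higher for GAPDH (-0.06 against -0.11, with overlapping arrays). The part of this difference and of the marker sums in the results was not tested.

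Under entinostat the synthetase mRNAs did not move as a block. At 24 h, 8 of the 33 members lay higher and 14 lower than in DMSO, and 11 did not pass the test (limma, Benjamini-Hochberg adjusted over all probe sets, threshold 0.05). At 48 h the numbers were 7 higher, 13 lower and 13 not past. Over both times in an additive model of treatment and time, the members that rose most were FARS2, MARS2 and NARS2, which are mitochondrial enzymes, and cytosolic SARS1, whereas mitochondrial CARS2, cytosolic LARS1 and WARS1 and the scaffold AIMP1 fell most. The order differed by time, with AARS1 among the 4 largest rises at 24 h and RARS2 among the 4 largest falls at 48 h. The largest absolute log2FC, the log2 fold change of entinostat over DMSO, was 0.78 at 24 h (CARS2, lower) and 1.35 at 48 h (FARS2, higher).

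The drug moved many other genes as well. Over the whole array, 18.2% of genes rose and 15.0% fell at 24 h, and 17.3% and 16.6% at 48 h. No member had a mean log2 intensity under 7, and among the genes at or above that level 27.1% were higher and 26.5% lower at 24 h, against 24.2% and 42.4% of the synthetases. At 48 h the shares were 25.4% and 29.9% of such genes against 21.2% and 39.4% of the synthetases. The share of synthetases that were higher was therefore near that of genes at or above a mean log2 of 7 at both times. The share that were lower was above it, a difference that was not tested. Brightness was not matched beyond this limit, and the members had a median of 9.48. The median log2FC of the members was -0.15 at 24 h and -0.11 at 48 h, beside -0.02 over all genes at each time. In the additive model 9 members were higher, 18 lower and 6 not past, with 21.0% and 19.7% of all genes called in these directions. In bulk RNA of this kind, fewer cells of a type and less RNA per cell cannot be told apart.

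The entinostat and DMSO arrays of each member were also compared for overlap. At 24 h the 3 entinostat arrays lay above all 3 DMSO arrays for 10 genes and below them for 19, and the groups overlapped for 4. At 48 h the numbers were 8, 15 and 10. Arrays without overlap were found in 23.1% (higher) and 23.4% (lower) of all genes at 24 h and in 21.9% and 23.3% at 48 h. Passing at 24 h and again at 48 h were 6 members in the higher direction (FARS2, FARSB, MARS2, NARS2, PARS2 and SARS1) and 10 in the lower direction (AIMP1, CARS2, HARS2, IARS1, LARS1, NARS1, SARS2, WARS1, WARS2 and YARS2), while 13.7% and 11.1% of all genes did so. No member passed in opposite directions at 24 h and 48 h, as 0.157% (higher, then lower) and 0.101% (lower, then higher) of all genes did.

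**Figure D1:**
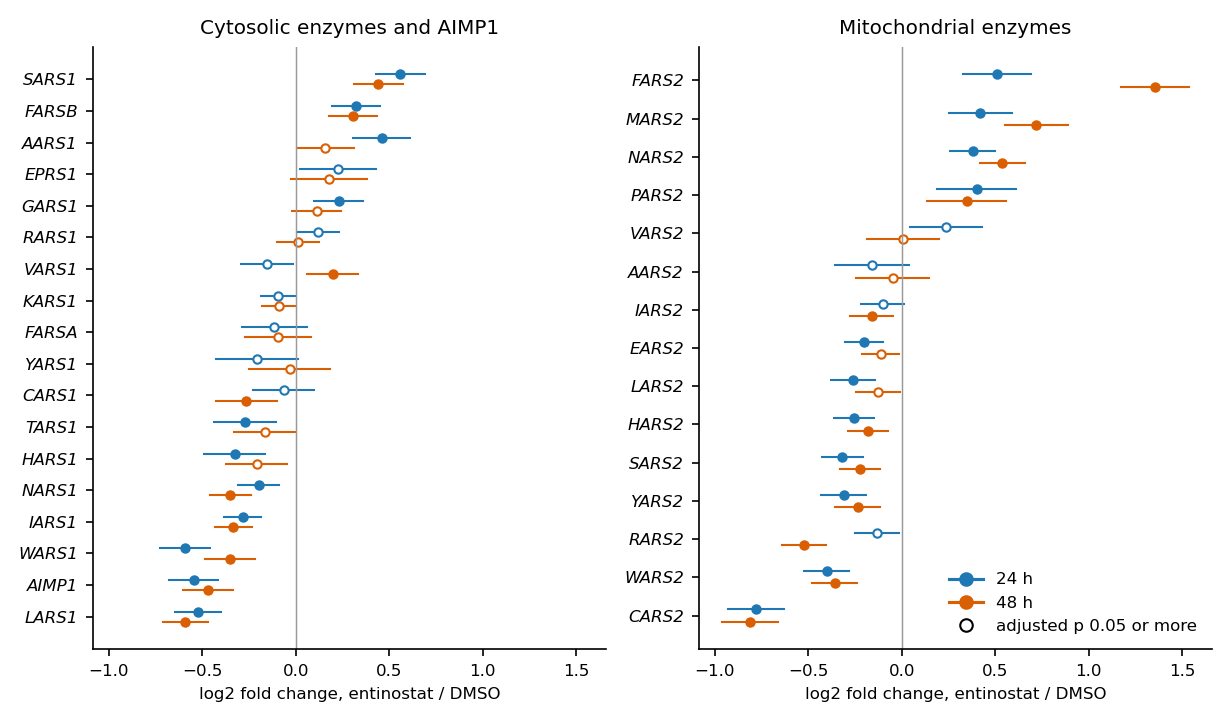
Log2 fold change of entinostat against DMSO for each of the 33 member genes at 24 h and 48 h, grouped by compartment, as points with 95% confidence intervals of the limma fit (n = 3 arrays per group). FARS2 stands furthest to the right at 48 h with 1.35 and CARS2 furthest to the left at both times with -0.78 and -0.81.

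FARS2, the mitochondrial phenylalanyl-tRNA synthetase, rose at both times and rose more at 48 h. FARS2 had intensities of 393, 412 and 396 in DMSO and 611, 576 and 526 in entinostat at 24 h, and of 348, 419 and 381 and 1048, 998 and 886, respectively, at 48 h. Every entinostat array was above every DMSO array, and the 3 arrays of 48 h entinostat were above all others. The log2FC (given with its standard error, SE) was 0.51 (SE 0.08, adjusted p = 0.000529) at 24 h and 1.35 (SE 0.08, adjusted p = 1.64e-07) at 48 h in limma. In DMSO the gene had a difference of -0.07 between 48 h and 24 h (adjusted p = 0.848). The interaction of treatment and time, which tests whether the effect at 48 h differs from that at 24 h, was 0.84 (SE 0.12, adjusted p = 0.00717) in limma. A second probe set gave 0.44 and 1.32 with an interaction of 0.88 (adjusted p = 0.00148), whereas the third, with a mean log2 intensity of 6.02, had 0.19 (adjusted p = 0.0527) and -0.14 (adjusted p = 0.14). The cytosolic enzyme of the same amino acid is built from the products of FARSA and FARSB.

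MARS2, the mitochondrial methionyl-tRNA synthetase, was higher at both times as well. MARS2 had intensities of 467, 439 and 436 in DMSO and 635, 581 and 578 in entinostat at 24 h, and of 434, 511 and 494 and 848, 803 and 718, respectively, at 48 h. The groups did not overlap, and the 48 h entinostat arrays were the brightest. Its log2FC was 0.42 (SE 0.08, adjusted p = 0.00136) at 24 h and 0.72 (SE 0.08, adjusted p = 1.7e-05) at 48 h in limma, with an interaction of 0.30 (adjusted p = 0.251). NARS2, the mitochondrial asparaginyl-tRNA synthetase, rose by a log2FC of 0.38 at 24 h and 0.54 at 48 h (adjusted p = 0.000222 and 1.16e-05). NARS2 had intensities of 1024, 908 and 957 in DMSO and 1274, 1220.2 and 1262 in entinostat at 24 h, and of 963, 900.1 and 966 and 1359, 1392 and 1353, respectively, at 48 h. All 6 entinostat arrays were above all 6 DMSO arrays. PARS2, which charges mitochondrial tRNA with proline, was higher at both times too. PARS2 had intensities of 144, 149 and 132 in DMSO and 213, 194 and 158 in entinostat at 24 h, and of 139, 139 and 139.6 and 172, 168 and 193, respectively, at 48 h. The treated arrays were higher throughout, with a log2FC of 0.40 at 24 h and 0.35 at 48 h (adjusted p = 0.00803 and 0.0178). Without entinostat replicate 3 at 48 h the latter was 0.28 (adjusted p = 0.0769).

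Of the cytosolic enzymes, SARS1, which charges serine and also supplies the tRNA on which selenocysteine is made, rose most. SARS1 had intensities of 1612, 1442 and 1484 in DMSO and 2244, 2193 and 2243 in entinostat at 24 h, and of 1559, 1443 and 1399.7 and 2072, 1909 and 1993, respectively, at 48 h. All entinostat arrays exceeded all DMSO arrays by a wide margin, and the log2FC in limma was 0.56 (SE 0.06, adjusted p = 1.86e-05) at 24 h and 0.44 (SE 0.06, adjusted p = 0.000116) at 48 h. The other of the 2 probe sets of SARS1 did not pass at either time. FARSB, the beta subunit of cytosolic phenylalanyl-tRNA synthetase, had 0.32 and 0.30 (adjusted p = 0.00113 and 0.0016). FARSB had intensities of 1768, 1809 and 1907 in DMSO and 2214, 2262 and 2383 in entinostat at 24 h, and of 1709, 1871 and 1732 and 2124, 2302 and 2135, respectively, at 48 h. The groups were again separate. A dim probe set of FARSB, with a mean log2 intensity of 6.48, passed in the other direction at 48 h with -0.22 (adjusted p = 0.0382) and had 0.01 (adjusted p = 0.961) at 24 h, and the third had 0.09 (adjusted p = 0.519) and 0.17 (adjusted p = 0.202). FARSB was the only member of the 33 whose probe sets passed with opposite signs. For the alpha subunit, FARSA, the log2FC was -0.11 (adjusted p = 0.366) at 24 h and -0.10 (adjusted p = 0.465) at 48 h.

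Higher at 24 h alone by the test were AARS1 and GARS1, which charge alanine and glycine. AARS1 had intensities of 845, 795 and 919 in DMSO and 1065, 1215 and 1241 in entinostat at 24 h, and of 785, 800.0 and 783 and 907, 838 and 897, respectively, at 48 h. At 24 h the treated arrays were clearly above the controls, and at 48 h they were above them by less. AARS1 had a log2FC of 0.46 (SE 0.07, adjusted p = 0.000324) at 24 h and 0.16 (SE 0.07, adjusted p = 0.134) at 48 h in limma, and its interaction was -0.30 (adjusted p = 0.196), so a difference between the times was not established. GARS1 had 0.23 (adjusted p = 0.0128) and 0.11 (adjusted p = 0.228), and its interaction was -0.12 (adjusted p = 0.637). Without entinostat replicate 3 at 24 h the 24 h value of GARS1 was 0.20 (adjusted p = 0.0547). VARS1, for valine, passed at 48 h alone, in 1 of its 2 probe sets. VARS1 had intensities of 566, 617 and 599 in DMSO and 501, 541 and 562 in entinostat at 24 h, and of 595, 561 and 533 and 664, 616 and 656, respectively, at 48 h. At 24 h all treated arrays were below the controls, and at 48 h all were above them. The log2FC was -0.15 (adjusted p = 0.104) at 24 h and 0.20 (adjusted p = 0.0364) at 48 h, and its interaction was 0.35 (adjusted p = 0.0876). The 48 h call was lost in 4 of 12 refits with a single array removed, those without DMSO replicate 2 or 3 or entinostat replicate 1 or 3 at 48 h (log2FC from 0.16, adjusted p up to 0.139).

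CARS2, the mitochondrial cysteinyl-tRNA synthetase, had the largest fall of the members at 24 h and at 48 h. CARS2 had intensities of 519.6, 494 and 539 in DMSO and 288, 292 and 325 in entinostat at 24 h, and of 527, 550.0 and 553 and 336, 288 and 305, respectively, at 48 h. The treated arrays were all far below the controls at either time. The log2FC was -0.78 (SE 0.07, adjusted p = 3.4e-06) at 24 h and -0.81 (SE 0.07, adjusted p = 2.14e-06) at 48 h in limma. Of the other 4 probe sets of CARS2, all with a mean log2 intensity under 7, 1 passed at both times with -0.21 and -0.15, and the remaining ones had -0.30 to 0.04 at 24 h. Other mitochondrial enzymes among the 8 largest falls, WARS2 for tryptophan and YARS2 for tyrosine, fell by less. WARS2 had intensities of 325, 330.1 and 353 in DMSO and 256, 247 and 259.5 in entinostat at 24 h, and of 334, 369.6 and 353 and 285, 269 and 269, respectively, at 48 h. YARS2 had intensities of 658, 693 and 688 in DMSO and 555, 524 and 565 in entinostat at 24 h, and of 661, 659.5 and 636 and 584, 558 and 523, respectively, at 48 h. In both genes every treated array was below every control of its time. WARS2 had a log2FC of -0.40 and -0.36 (adjusted p = 0.000154 and 0.000346 in limma) and YARS2 of -0.31 and -0.23 (adjusted p = 0.000985 and 0.00648).

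Within the multisynthetase complex, LARS1 and IARS1, which charge leucine and isoleucine, and the scaffold AIMP1 were lower at both times. LARS1 had intensities of 2170.0, 2417 and 2302 in DMSO and 1551, 1661 and 1581 in entinostat at 24 h, and of 2434, 2434 and 2475 and 1568, 1706 and 1607, respectively, at 48 h. IARS1 had intensities of 4738, 4749.9 and 4868 in DMSO and 3949, 3859 and 3979 in entinostat at 24 h, and of 4762, 4619 and 4544 and 3786, 3666 and 3595, respectively, at 48 h. AIMP1 had intensities of 1919, 1892 and 2013 in DMSO and 1370.1, 1248 and 1376 in entinostat at 24 h, and of 2005, 1927 and 2043 and 1526, 1358 and 1435, respectively, at 48 h. In all of these the treated and control arrays were separate, with little difference between 24 h and 48 h. The log2FC of LARS1 was -0.52 (SE 0.06, adjusted p = 1.77e-05) at 24 h and -0.59 (SE 0.06, adjusted p = 5.61e-06) at 48 h in limma, and all 4 of its probe sets were lower at both times, from -0.62 to -0.52 at 24 h and from -0.69 to -0.42 at 48 h. These 4 probe sets are of the types _x_at and _s_at, which may detect several transcripts. AIMP1 had -0.55 and -0.47 (adjusted p = 2.37e-05 and 7.31e-05), and its 3 probe sets were lower at both times, from -0.62 to -0.55 at 24 h. IARS1 had -0.28 and -0.33 (adjusted p = 0.000476 and 0.000122).

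By their probe sets of the highest mean, the 3 other enzymes of the complex among the 33 genes did not pass at 24 h or 48 h. EPRS1, which joins glutamyl- and prolyl-tRNA synthetase in a single chain, had log2FC values of 0.23 (adjusted p = 0.107) and 0.18 (adjusted p = 0.215). EPRS1 had intensities of 2105, 2157 and 2291 in DMSO and 2238, 2761 and 2693 in entinostat at 24 h, and of 2068, 2563 and 2302 and 2439, 2785 and 2598, respectively, at 48 h. On this probe set the EPRS1 arrays overlapped at both times, and in the additive model it was higher with 0.20 (adjusted p = 0.0279). That call was lost in 6 of the 12 fits that each left out 1 array (DMSO replicate 1 or 2 at 24 h, DMSO replicate 1 at 48 h, entinostat replicate 2 or 3 at 24 h or entinostat replicate 2 at 48 h, adjusted p up to 0.0681). A second probe set of EPRS1, with a mean log2 intensity of 10.52, passed at 24 h with 0.23 (adjusted p = 0.00867 in limma) and separate arrays. At 48 h it had 0.08 (adjusted p = 0.412). The third had 0.21 (adjusted p = 0.325) and 0.36 (adjusted p = 0.0764), with separate arrays at 48 h alone. KARS1, for lysine, had -0.10 (adjusted p = 0.123) and -0.09 (adjusted p = 0.152), although its treated arrays were all lower at both times. In the additive model KARS1 was lower with -0.09 (adjusted p = 0.0263 in limma), a call lost in 2 of 12 refits (adjusted p up to 0.0521). RARS1, for arginine, had 0.12 (adjusted p = 0.129) and 0.01 (adjusted p = 0.911). MARS1, for methionine, also belongs to the complex and stayed outside the counts. Of its 3 probe sets, which carry the symbols MIR6758 and MARS1, 2 were lower at 24 h and 1 at 48 h. They had log2FC values of -0.15 (adjusted p = 0.22), -0.25 (adjusted p = 0.0336) and -0.68 (adjusted p = 0.00512) at 24 h. At 48 h they had -0.18 (adjusted p = 0.139), -0.21 (adjusted p = 0.0698) and -0.63 (adjusted p = 0.00754). The probe set of MIR6890 and QARS1 had -0.01 (adjusted p = 0.964) and -0.18 (adjusted p = 0.384), and that of MIR6878 and TARS2 -0.13 (adjusted p = 0.167) and -0.09 (adjusted p = 0.373). In all, 2 of the 5 counted complex enzymes were lower at each time and the other 3 did not pass. In the additive model 1 of the 5 was higher and 3 were lower, beside 21.0% and 19.7% of all genes. Of the 12 cytosolic enzymes outside the complex 4 were higher and 4 lower at 24 h, and 3 and 3 at 48 h. Over all genes the shares higher and lower were 18.2% and 15.0% at 24 h and 17.3% and 16.6% at 48 h. Among genes at a mean log2 of at least 7 they were 27.1% and 26.5% at 24 h and 25.4% and 29.9% at 48 h.

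Outside the complex, WARS1 and NARS1 fell at both times. WARS1, for tryptophan, is known as an interferon-induced gene. WARS1 had intensities of 594, 561 and 579.9 in DMSO and 376, 389 and 384 in entinostat at 24 h, and of 465, 438 and 432 and 373, 319.6 and 355, respectively, at 48 h. Treated arrays were below the controls at each time, and the 48 h controls were below the 24 h controls. The log2FC was -0.59 (SE 0.06, adjusted p = 1.33e-05) at 24 h and -0.35 (SE 0.06, adjusted p = 0.000819) at 48 h in limma, and a second probe set had -0.65 and -0.48 (adjusted p = 0.0077 and 0.0386). NARS1, for asparagine, had -0.20 and -0.35 (adjusted p = 0.011 and 0.000172). NARS1 had intensities of 3829, 3788 and 3764 in DMSO and 3274, 3298 and 3355 in entinostat at 24 h, and of 3629, 3461 and 3538 and 2669, 2948 and 2719, respectively, at 48 h. No treated array of NARS1 reached a control of its time.

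**Figure D2:**
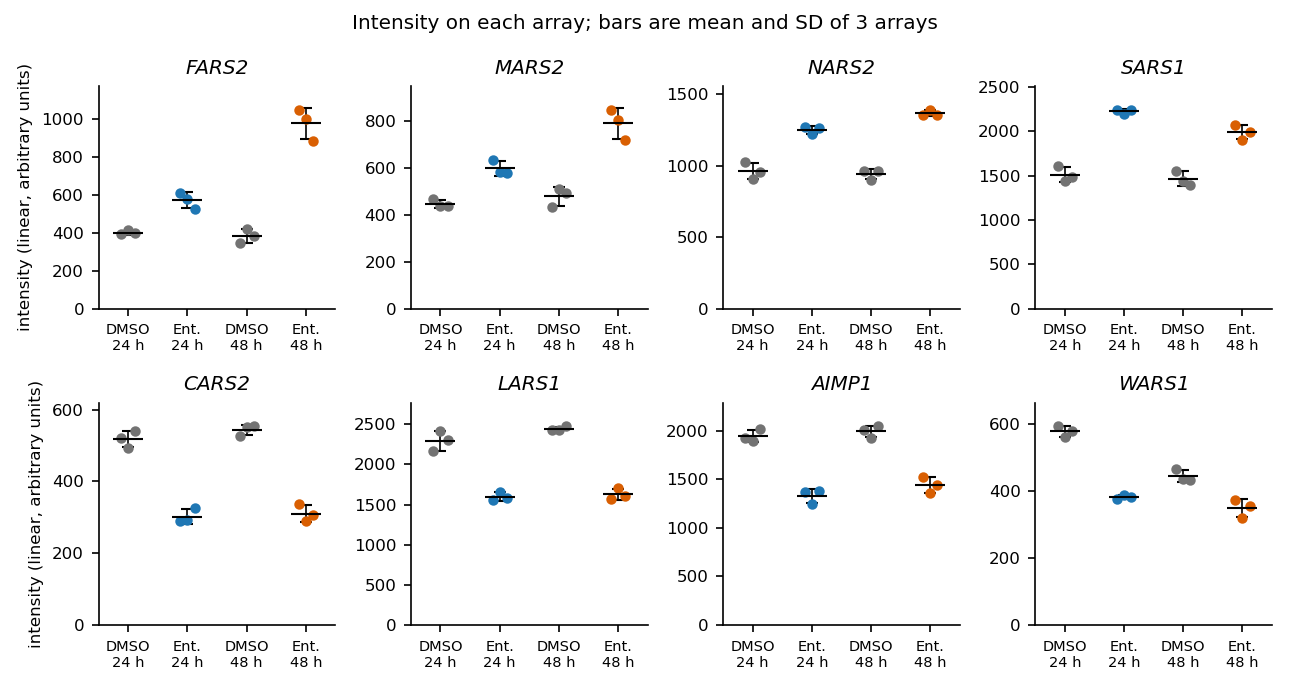
Intensity (linear scale, arbitrary units, each axis from 0) on every array for FARS2, MARS2, NARS2, SARS1, CARS2, LARS1, AIMP1 and WARS1 in the 4 groups, with points for the 3 arrays and bars for their mean and SD. The treated arrays lie above the controls in the genes that rose and below them in those that fell, and FARS2 reaches 977 ± 83 (mean ± SD, n = 3) after 48 h of entinostat against 383 ± 35.7 in DMSO.

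Other members were lower at 1 or both times. SARS2 and HARS2, the mitochondrial enzymes for serine and histidine, were lower at both times, SARS2 with a log2FC of -0.32 and -0.22 and HARS2 with -0.25 and -0.18 (adjusted p = 0.00165 and 0.0149 in limma). Without entinostat replicate 2 at 48 h the latter p was 0.0504. Lower at 24 h and not past at 48 h were EARS2, HARS1, LARS2 and TARS1, which serve glutamate in mitochondria, histidine, leucine in mitochondria and threonine, with 24 h values of -0.20, -0.33, -0.26 and -0.27 and 48 h values of -0.11, -0.21, -0.13 and -0.17. The TARS1 call was lost without DMSO replicate 2 or 3 or entinostat replicate 2 at 24 h (adjusted p up to 0.0849), and HARS1 passed at 48 h without DMSO replicate 2 at 48 h (log2FC -0.29, adjusted p = 0.00732). CARS1, IARS2 and RARS2, for cysteine and, in mitochondria, isoleucine and arginine, were lower at 48 h with -0.27, -0.16 and -0.52, after -0.06, -0.10 and -0.13 at 24 h. Of the 4 probe sets of CARS1, 1 passed at 48 h. The 48 h call of CARS1 was lost in 2 of 12 refits, without DMSO replicate 2 or entinostat replicate 3 of that time (adjusted p up to 0.082). That of IARS2 was lost in 5, without DMSO replicate 1 at 24 h or DMSO or entinostat replicate 1 or 3 at 48 h (adjusted p up to 0.134). Not past at either time, beside the complex enzymes EPRS1, KARS1 and RARS1 and the subunit FARSA, were AARS2, VARS2 and YARS1, whose values ranged from -0.21 to 0.24. At 24 h, VARS2 passed without DMSO replicate 1 at 24 h (log2FC 0.30, adjusted p = 0.0431) or DMSO replicate 1 at 48 h (log2FC 0.24, adjusted p = 0.0489), and EPRS1 without entinostat replicate 1 at 24 h (log2FC 0.32, adjusted p = 0.0234).

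By its probe set of the highest mean, RARS2, the mitochondrial arginyl-tRNA synthetase, was the other member besides FARS2 that passed the interaction. RARS2 had intensities of 822, 766 and 793 in DMSO and 687, 719 and 765 in entinostat at 24 h, and of 708, 696 and 736 and 486, 495 and 506, respectively, at 48 h. At 24 h the treated arrays were slightly below the controls, and at 48 h they were far below them and below every other array. The log2FC was -0.13 (SE 0.05, adjusted p = 0.0979) at 24 h and -0.52 (SE 0.05, adjusted p = 1.18e-05) at 48 h, and the interaction was -0.39 (SE 0.08, adjusted p = 0.0334) in limma. With single arrays removed this call was lost in 11 of the 12 refits, all but the one without entinostat replicate 1 at 24 h, with values from -0.43 to -0.35 and an adjusted p of up to 0.0855. Its value at 24 h passed without entinostat replicate 3 at 24 h (log2FC -0.17, adjusted p = 0.0482). Of the 6 probe sets of RARS2, 1 was lower at 24 h and 3 at 48 h. These 3 had -0.52, -0.56 and -0.38 at 48 h, and the interaction of the latter pair was -0.47 (adjusted p = 0.165) and -0.24 (adjusted p = 0.187). Among all genes, 0.794% passed the interaction with a larger and 1.13% with a smaller value at 48 h, beside 1 and 1 of the 33 members, and at an unadjusted p under 0.05 the members counted 4 and 2.

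Culture time without the drug was compared as well. Between 48 h and 24 h of DMSO, 1 member was lower (limma) and 0 were higher, where 0.243% and 0.217% of all genes were called, and at an unadjusted p under 0.05 there were 5 lower and 1 higher. The gene was WARS1, with -0.38 (SE 0.06, adjusted p = 0.0284), which no longer passed in 5 of the 12 fits that each left out 1 array, without DMSO replicate 1 or 2 at 24 h, entinostat replicate 2 at 24 h, or DMSO replicate 2 or 3 at 48 h (adjusted p up to 0.125). The difference of WARS1 between 48 h and 24 h controls has the same sign as the effect of entinostat, whose interaction with time was 0.24 (adjusted p = 0.239) for this gene. Among the other 32 members the difference between the controls ranged from -0.29 to 0.15.

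Cytosolic and mitochondrial enzymes of the same amino acid did not always move alike. The 17 cytosolic genes counted 4 higher and 6 lower at 24 h and 3 and 5 at 48 h. The 15 mitochondrial genes counted 4 higher and 7 lower at each time. KARS1 and GARS1, which serve both compartments, were counted as cytosolic. Over all genes the shares higher and lower were 18.2% and 15.0% at 24 h and 17.3% and 16.6% at 48 h. Among genes at a mean log2 of at least 7 they were 27.1% and 26.5% at 24 h and 25.4% and 29.9% at 48 h. The median log2FC was -0.11 for cytosolic and -0.16 for mitochondrial genes at 24 h and -0.09 and -0.13 at 48 h. In 11 amino acids both enzymes were measured. At 24 h both were lower in 3 of these pairs (histidine, leucine and tryptophan), and at 48 h in 3 (cysteine, isoleucine and tryptophan). Asparagine and serine had opposite calls at both times. For asparagine the cytosolic NARS1 was lower (-0.20 and -0.35) and the mitochondrial NARS2 higher (0.38 and 0.54). For serine the cytosolic SARS1 was higher (0.56 and 0.44) and the mitochondrial SARS2 lower (-0.32 and -0.22). SARS2 had intensities of 218, 205 and 221 in DMSO and 173, 174 and 169 in entinostat at 24 h, and of 217, 209 and 217 and 181, 191 and 179.8, respectively, at 48 h. These SARS2 arrays were separate from their controls at both times. In the remaining pairs 1 enzyme or none passed. Phenylalanine, proline and glutamate also had enzymes of both compartments among the members but were outside the pairs. For phenylalanine, FARSB (0.32 and 0.30) and FARS2 (0.51 and 1.35) were higher at both times and FARSA did not pass. EPRS1, which serves proline and glutamate, did not pass by its probe set of the highest mean. PARS2 was higher at both times and EARS2 lower at 24 h.

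By structural class, with EPRS1 counted in both because it holds an enzyme of each, 1 of 17 class I genes was higher and 8 lower at 24 h, and 2 and 9 at 48 h. MARS2 was the class I gene that was higher at 24 h, and VARS1 joined it at 48 h. The 16 class II genes counted 7 higher and 5 lower at 24 h and 5 and 3 at 48 h. On the array as a whole, genes at a mean log2 of at least 7 had shares higher and lower of 27.1% and 26.5% at 24 h and 25.4% and 29.9% at 48 h. The median log2FC was -0.20 in class I and 0.06 in class II at 24 h, and -0.16 and 0.03 at 48 h, beside -0.02 over all genes at each time. The split by class is a count over genes of 1 cell line, and no test of it was made.

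Probe sets of the same gene were set side by side. Of the 33 members 19 had several probe sets. All probe sets passed in the same direction at both times in AIMP1, LARS1 and WARS1, and both probe sets of LARS2 were lower at 24 h. In CARS2, EARS2, EPRS1, FARS2, FARSB, RARS2, SARS1, TARS1 and WARS2 some probe sets passed at 24 h and others did not. At 48 h this was so in CARS1, CARS2, FARS2, FARSB, RARS2, SARS1, VARS1 and WARS2. Passing at 48 h were 1 of 4 probe sets in CARS1, 1 of 2 in SARS1 and in VARS1 and 1 of 3 in WARS2. Over all 70 probe sets 10 were higher and 25 lower at 24 h, and 8 and 23 at 48 h, beside 12.8% and 12.4% of all probe sets at 24 h and 12.9% and 13.2% at 48 h. These numbers count several probe sets of the same gene and are not independent.

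**Figure D3:**
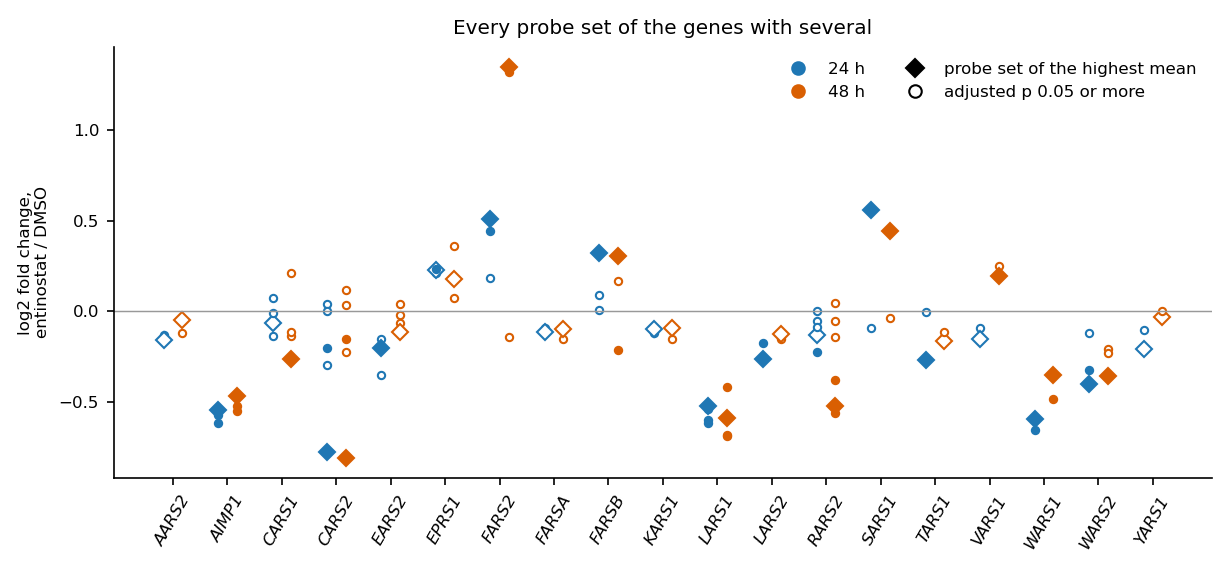
Log2FC of every probe set of the 19 members with several, at 24 h and 48 h, with diamonds for the probe set of the highest mean and filled symbols for those that passed the adjusted threshold. The probe sets of AIMP1 and LARS1 lie together below 0, whereas those of FARS2 spread from -0.14 to 1.35 at 48 h.

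The genes around the synthetases in the amino acid response moved in both directions too. ATF4, which is itself controlled by translation, had a log2FC of 0.41 at 24 h and 0.36 at 48 h (adjusted p = 0.0133 and 0.0256 in limma). In a list of 31 genes set up around ATF4 and its amino acid targets 13 were higher and 4 lower at 24 h, and 12 and 7 at 48 h, with a median of 0.08 and 0.04. The shares of all genes were 18.2% and 15.0% at 24 h and 17.3% and 16.6% at 48 h. Among those at a mean log2 of at least 7 they were 27.1% and 26.5% at 24 h and 25.4% and 29.9% at 48 h. The list holds no synthetase. Of the list genes past at both times, the 4 with the largest absolute mean of both log2FC values were picked. All 4 rose, and the list genes that fell are not named. VLDLR, a lipoprotein receptor, rose by 1.53 and 2.47, the transcription factor CEBPB by 1.07 and 1.42, the kinase EIF2AK3 (PERK) by 1.10 and 1.04 and the transcription factor ATF3 by 1.23 and 0.79. ASNS, asparagine synthetase, which makes asparagine and charges no tRNA, was higher by 1.05 at 24 h and 0.37 at 48 h with an interaction of -0.67 (adjusted p = 0.0431). This gene was picked after its values were seen. With single arrays removed, its interaction lost the call in 11 of 12 refits (adjusted p up to 0.0966), and the 48 h call in 2 of 12 refits (without DMSO replicate 2 at 48 h or entinostat replicate 1 at 48 h, adjusted p up to 0.0627). The ATF4 calls were lost in 2 of 12 refits (without entinostat replicate 2 or 3 at 24 h, adjusted p up to 0.0541) at 24 h and 4 of 12 refits (without DMSO replicate 1 or 3 at 48 h or entinostat replicate 2 or 3 at 48 h, adjusted p up to 0.109) at 48 h. ASNS intensities were 1834, 1765 and 1724 in DMSO and 3879, 3445 and 3674 in entinostat at 24 h, and 1501, 1249 and 1376 and 2087, 1731 and 1552 at 48 h. ASNS was thus higher on all treated arrays of 24 h, as were 10 of the 33 members and 23.1% of all genes. NARS1, which uses the product of ASNS, was lower.

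The C/EBP-ATF response element, the sequence that ATF4 binds with C/EBP factors, was looked for in the promoters because several synthetase genes are known to respond to amino acid shortage through it. The letters TGATGNAA were searched on both strands from 250 bases before to 50 bases after the start of each gene (RefSeq, GRCh38.p14). Of the 33 members 28 had such a window, and 7 of them held the letters (AARS1, CARS1, GARS1, IARS1, NARS1, TARS1 and YARS2), beside 4.46% of 27305 genes. The stretches around the matches upstream of the start in AARS1, GARS1, IARS1 and YARS2 are shown because these genes moved in different directions, and that of ASNS for comparison. The match is in capitals, 5′ to 3′ on the strand of the gene, and reads as the reverse complement where it lies on the other strand.
AARS1: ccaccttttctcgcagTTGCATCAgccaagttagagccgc
GARS1: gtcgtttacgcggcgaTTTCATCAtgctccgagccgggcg
IARS1: ccgcattttcagcgcgTTGCATCAcctcc
YARS2: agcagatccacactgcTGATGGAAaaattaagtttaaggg
ASNS: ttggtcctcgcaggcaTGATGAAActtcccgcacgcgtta
They lie at chr16:70289670-70289709 on the minus strand (AARS1), chr7:30594829-30594868 on the plus strand (GARS1), chr9:92293698-92293726 on the minus strand (IARS1), chr12:32756071-32756110 on the minus strand (YARS2) and chr7:97872453-97872492 on the minus strand (ASNS). The match begins 187 bases before the start in AARS1, 33 in GARS1, 13 in IARS1, 197 in YARS2 and 68 in ASNS. Among the 7 members with the letters, AARS1 and GARS1 were higher at 24 h (0.46 and 0.23), whereas IARS1, NARS1 and YARS2 were lower at both times, TARS1 was lower at 24 h (-0.27) and CARS1 at 48 h (-0.27). SARS1, which rose at both times, had no match of these letters in its window. A match is a description of the letters and does not show that a factor was bound.

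The E-box CACGTG, to which MYC binds with MAX, was counted in the same windows since the MYC gene is amplified in this line. It reads the same on both strands and shares no bases with the element above in any member shown. It was found in 4 of the 28 members (CARS2, EARS2, IARS1 and MARS2), beside 8.77% of all 27305 genes. The stretch of MARS2 is shown because it is the one of these genes that rose.
MARS2: gcgcatgcgcctctcaCACGTGctgtc
It lies at chr2:197705342-197705368 on the plus strand, with the match in capitals 11 bases before the start. CARS2 and IARS1 were lower at both times, EARS2 was lower at 24 h and MARS2 was higher at both. MYC itself had a log2FC of 0.04 (adjusted p = 0.6) at 24 h and 0.17 (adjusted p = 0.0163) at 48 h, the latter lost in 2 of 12 refits (without DMSO replicate 1 at 48 h or entinostat replicate 2 at 48 h, adjusted p up to 0.0586).

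Genes that act on tRNA before and after charging were also described by counts, to be set beside the shares higher and lower of all genes (18.2% and 15.0% at 24 h and 17.3% and 16.6% at 48 h) and of those at a mean log2 of at least 7 (27.1% and 26.5% at 24 h and 25.4% and 29.9% at 48 h). Of 44 genes of tRNA maturation, modification and export 11 had risen and 16 fallen at 24 h, and 8 and 15 at 48 h, with a median log2FC of -0.07 and -0.03. The dihydrouridine synthase DUS3L (-0.97 and -0.77), the tRNA methyltransferase TRMT1 (-0.96 and -0.67) and the adenosine deaminase subunit ADAT2 (-0.69 and -0.57) fell, and RPP25, a subunit of RNase P, rose (0.83 and 0.58). Of 10 editing, amidation and related factors 4 were lower at 24 h and 5 at 48 h, and the others did not pass. They included QRSL1, which makes glutaminyl-tRNA in mitochondria by amidation (-0.57 and -0.24), the threonyl-tRNA synthetase paralog TARS3 (-0.43 and -0.67) and PRORSD1P (-0.26 and -0.15). Of 11 translation elongation factors, which carry the charged tRNA to the ribosome and move it on, 3 were higher and 2 lower at 24 h and 6 and 2 at 48 h. EEF1A2, the form of the carrier found in neurons and muscle, rose by 1.56 and 2.35, with an interaction of 0.79 (adjusted p = 0.0355) in limma. EIF5A2 (0.37 and 0.28) and EEF1D (0.27 and 0.18) rose less, and EEF2K, the kinase that inhibits EEF2, fell (-0.58 and -0.33). With 1 array left out at a time, the interaction of EEF1A2 was lost in 10 of 12 refits (without DMSO replicate 1, 2 or 3 at 24 h or entinostat replicate 1 or 2 at 24 h or DMSO replicate 2 or 3 at 48 h or entinostat replicate 1, 2 or 3 at 48 h, adjusted p up to 0.0779). The 48 h calls were lost for QRSL1 in 5 of 12 refits (without DMSO replicate 1, 2 or 3 at 48 h or entinostat replicate 2 or 3 at 48 h, adjusted p up to 0.129), for EIF5A2 in 2 of 12 refits (without DMSO replicate 1 at 48 h or entinostat replicate 2 at 48 h, adjusted p up to 0.059) and for EEF1D in 5 of 12 refits (without DMSO replicate 1, 2 or 3 at 48 h or entinostat replicate 2 or 3 at 48 h, adjusted p up to 0.104). That of PRORSD1P was lost in 11 of 12 refits (adjusted p up to 0.173). DUS3L, TRMT1 and ASNS stand on probe sets of the types _s_at and _x_at, which may detect several transcripts. Their brightest probe set of another type, with a mean log2 intensity of 6.27, 5.92 and 5.63, had log2FC values of -0.04 (adjusted p = 0.827) and -0.12 (adjusted p = 0.428) (DUS3L) and -0.02 (adjusted p = 0.921) and 0.02 (adjusted p = 0.914) (TRMT1) and 0.06 (adjusted p = 0.573) and 0.07 (adjusted p = 0.543) (ASNS).

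**Figure D4:**
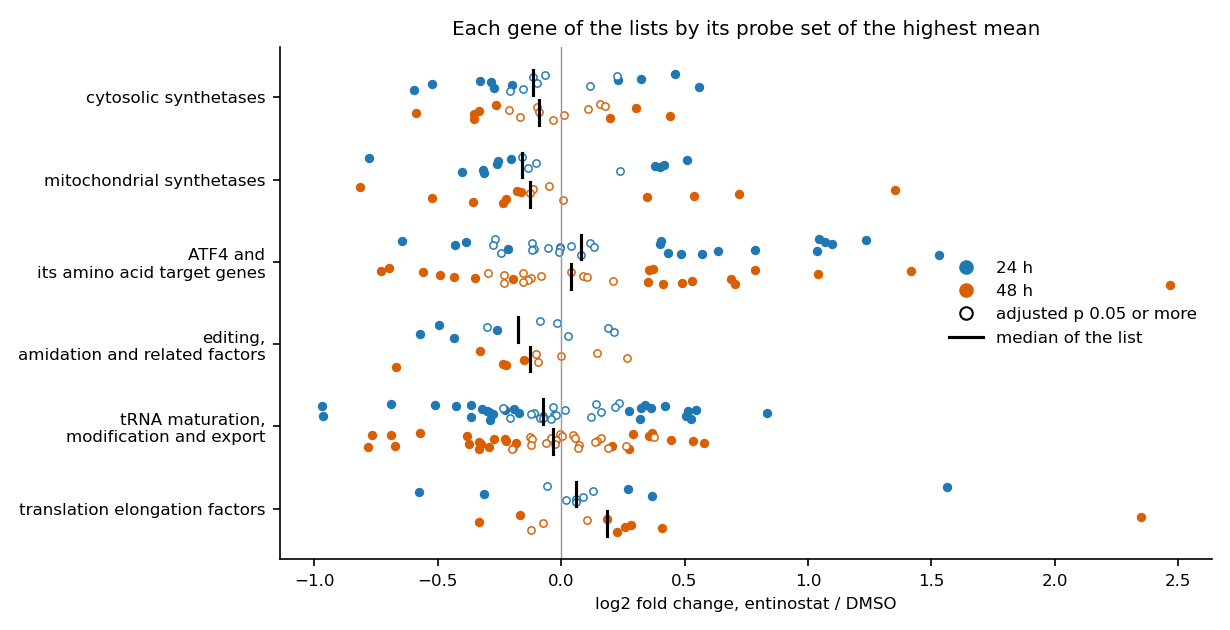
Log2FC of each gene in 6 lists at 24 h and 48 h, with 1 point per gene (filled where it passed) and a bar at the median of the list. The synthetases lie within -0.81 to 1.35, and the lists of ATF4 targets and elongation factors reach further up, to 2.47 (VLDLR) and 2.35 (EEF1A2) at 48 h.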

How the data were processed

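RNA of HD-MB03 cells was measured on 12 U133 Plus 2.0 arrays. According to the methods, the authors normalized the data with GCRMA (version not given in the sources used here) and log2-transformed them. The deposited intensity values are on a linear scale with a background level left in, so log2 was taken here, and the study may have analysed another export. The 62 control probe sets were dropped and 54613 remained, 1801 of them with several gene symbols and 11721 with none, which name no gene. Symbols came from GEO's platform annotation. For each gene the probe set with the highest mean was taken. The probe set of the strongest effect, which the study took for its gene set enrichment, was run as an alternative. The 12 arrays were fitted together with 1 mean per group in limma 3.58.1 (R 4.3.3), with Benjamini-Hochberg adjustment over all probe sets and a threshold of 0.05. Entinostat was compared with DMSO at each time and, with time as an additive term, over all arrays. The interaction and the difference between DMSO at 48 h and 24 h were also tested. The fit was tested on simulated data. Values by array are given for members that passed the interaction, the 8 largest rises and falls past at both times (6 rises passed), members with probe sets of opposite sign, FARS2, EPRS1, WARS1 and the scaffold protein measured. AARS1, VARS1, SARS2, ASNS, ATF4, MYC, OTX2, EPCAM and MBP were added after their values were seen. From each other list up to 4 genes past at both times are named. The members and lists were chosen with earlier results of these data known. The alternatives were other probe set choices, quantile normalization, centred arrays, a filter on dim probe sets, a subtracted background, a trended and robust eBayes prior, fits of each time alone, the replicate number as a block and leaving out each array. Protein sequences and genome coordinates of the probe sets were not used here.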

Additional observations from a re-analysis of the deposited data

Results flagged for a closer look

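FARS2, the mitochondrial phenylalanyl-tRNA synthetase, was flagged because its response to entinostat differed between 24 h and 48 h. The interaction of treatment and time, the test of that difference, was 0.84 (SE 0.12, adjusted p = 0.00717) on the log2 scale in limma over the 12 arrays, and the call held in each of the 12 refits that left out 1 array.

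RARS2, the mitochondrial arginyl-tRNA synthetase, was flagged for the same reason with the opposite sign. Its interaction was -0.39 (SE 0.08, adjusted p = 0.0334) in limma, and 11 of the 12 refits lost the call (adjusted p up to 0.0855). Among the named genes that are no synthetases the same test gave -0.67 for ASNS (adjusted p = 0.0431) and 0.79 for EEF1A2 (adjusted p = 0.0355), and fits without 1 array lost these calls in 11 of 12 refits and 10 of 12 refits.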

How the results depend on the processing

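The number of arrays and the background left in dim probe sets limit these results. Leaving out each array in turn gave, among the 33 genes, 7 to 9 higher and 13 to 15 lower at 24 h, 5 to 7 and 11 to 13 at 48 h, 8 to 9 and 16 to 18 over both times, 1 to 1 and 0 to 1 for the interaction, and 0 to 0 and 0 to 1 for DMSO 48 h against 24 h. With 30 subtracted from each intensity, 0 genes had a lower interaction and 0 were lower in DMSO at 48 h (limma, with 2 and 5 at an unadjusted p under 0.05). With the probe set of the strongest treatment effect, 0 had a lower interaction (2 at an unadjusted p under 0.05). Among probe sets with a mean log2 of 7 or more 2 genes had a higher interaction, FARS2 and VARS1 (VARS1 adjusted p = 0.0456), as fewer probe sets were tested. When the _x_at and _s_at probe sets, which may detect several transcripts, were dropped, FARSB took a dim probe set and turned to -0.22 at 48 h (adjusted p = 0.0382) and -0.10 over both times (adjusted p = 0.2). LARS1, IARS1, GARS1 and EPRS1 have only probe sets of these types and were absent from this setting. In the same setting TRMT1 turned to 0.022 (adjusted p = 0.914) at 48 h and 0.00096 (adjusted p = 0.994) over both times, and the interaction of ASNS to 0.0048 (adjusted p = 0.991). With the replicate number as a block, 9 genes had higher and 14 lower values at 24 h, 6 and 12 at 48 h, 9 and 17 over both times, 1 and 1 for the interaction, and 0 and 1 for DMSO 48 h against 24 h. Equal numbers were treated as a name and not as a pairing. The deviations of same-numbered arrays correlated at 0.053, 0.20 and 0.17 at 24 h and at 0.10, 0.063 and -0.061 at 48 h. Those of arrays with different numbers correlated at -0.21 to 0.061 at 24 h and at -0.13 to 0.071 at 48 h. Not every array correlated best with its own number, and a pairing was not tested. For values of single synthetase genes, alternatives other than leaving out an array kept direction and side of the threshold in 1326 cases, lost the call in 21, gained one in 12 and turned the direction in 2, which are those of FARSB. The cause of the lost calls was not tested.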
